A study of Homo sapiens with 7 samples.

Results

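The genes described here are 7 genes, SPNS3, P2RX7, OSCAR, ACAP1, CD86, CTSG and CNTN4, of 62238 genes in the exon count files of MEG-01 cells with and without knockdown of RBM15. They were chosen by name as myeloid and immune genes that drop steeply in both knockdown lines, so the size of their change was used in the choice and is given below as a description, with no test. The counts go against that name for 1 of them: CD86 was lower in the control library than in either knockdown library. CNTN4 is known mainly as a neural adhesion molecule, so the set is referred to below by its genes.

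MEG-01 is an established human megakaryoblastic leukemia cell line. All 3 RNA-seq libraries are of MEG-01 cells that by their labels carry lentiviral transgenes, were kept in RPMI1640 with 10% FBS and were harvested while growing exponentially. The control library is 1 library whose labels name no knockdown and do not say which transgene its cells carry. The 2 knockdown libraries carry the labels shRBM15#1 and shRBM15#2, each a stable line made with a lentiviral hairpin against RBM15 and puromycin selection, so each hairpin is represented by 1 line and the knockdown has n = 2. With 1 control library, the spread in every test comes from the 2 knockdown lines, and a difference between this control culture and other control cultures cannot be told apart from the knockdown. RNA of the whole culture was measured, so fewer cells of a type and less RNA per cell cannot be told apart either.

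RBM15 is an RNA-binding protein of the Spen family that takes part in RNA splicing and in the deposition of m6A on RNA. Its gene is known from a fusion in acute megakaryoblastic leukemia. Blood cells of the myeloid branch carry receptors that sense danger signals and tissue, among them the ATP-gated channel P2RX7 and the collagen receptor OSCAR, and they store proteases such as CTSG in granules. Megakaryoblasts share early progenitors with these cells.

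RBM15 itself had 3970 reads in the control library, 1957 in shRBM15#1 and 2121 in shRBM15#2, which is 80.2, 43.7 and 40.7 CPM (counts relative to the TMM-scaled size of the library). Both lines lay below the control, with log2 ratios of -0.88 and -0.98, although the change did not pass the edgeR quasi-likelihood test (adjusted p = 0.0908). The libraries held 41629454 to 53230029 reads on exon bins. A read that spans several bins appears to be counted in each: a bin of ACAP1 that is 1 base wide held 66 control reads. Reads outside all bins made up 30.4% in shRBM15#1 and 21.6% and 21.9% in the control and shRBM15#2.

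The control was the highest library for 6 of the 7 genes, and shRBM15#1 and shRBM15#2 kept between 2.26% and 8.92% of the control CPM. The background share of tested genes that were at least 2-fold lower in both lines was 3.56%, and 10.1% were at least 2-fold higher in both, of 24887 tested genes. Since the set was chosen on this contrast, nothing is read from the comparison with that background. Their mean log2 ratios of knockdown to control ran from -5.28 to -3.67, with a median of -4.20, against a median of -0.0006 over all tested genes. Ordered by mean log2 ratio from the lowest, SPNS3, P2RX7 and OSCAR took places 1, 2 and 3, CTSG place 6, ACAP1 place 9 and CNTN4 place 12. The choice has no stated threshold. Just above CNTN4 in this order stood ASS1, with 3335, 276 and 229 reads.

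**Figure D1:**
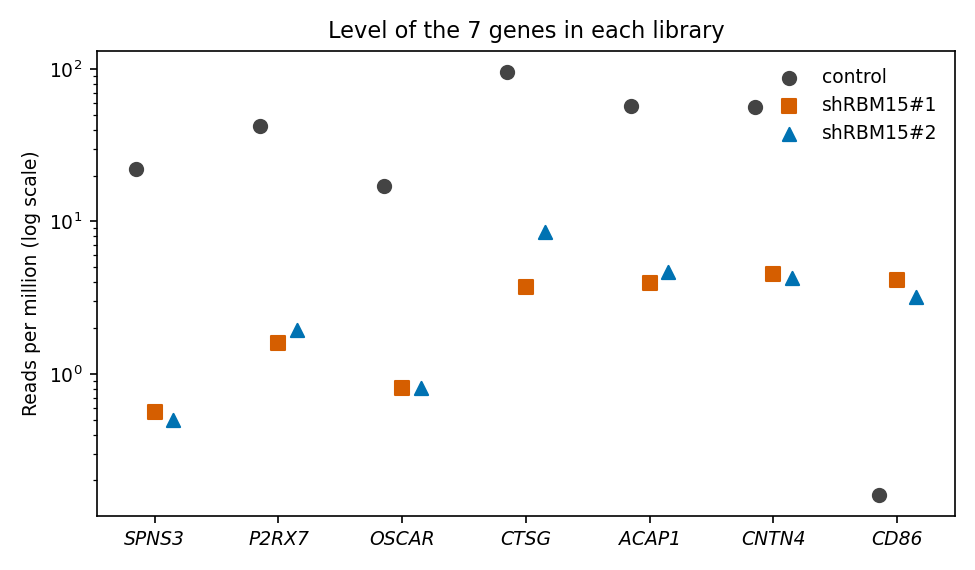
CPM (log scale) of the 7 genes in the control library (circle), shRBM15#1 (square) and shRBM15#2 (triangle), 1 point per library. The control lies above both lines for 6 genes and below both for CD86, and the lines lie apart most for CTSG, at 3.73 and 8.55 CPM.

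Promoter sequences from the set are shown as a description, with no test. The fall of 6 of the 7 genes in both lines was used in their choice, and CD86 rose. Nothing about shared control is read from these windows. The RefSeq table used here (GRCh38.p14) matched 4 of the 7 genes, P2RX7, CTSG, CD86 and CNTN4, by symbol. The 250 bases upstream of the annotated start were placed on GRCh37, the build of the counts, by exact match. The windows are shown for the gene of the set with the highest control level (CTSG), for the ATP receptor (P2RX7) and for the gene that went the other way (CD86). They are written 5′ to 3′ on the strand of the gene, with motif matches in capitals, and without the last 10 bases for CTSG and the last 57 bases for P2RX7, which lie in an exon bin.
CTSG, chr14:25045467-25045706, minus strand: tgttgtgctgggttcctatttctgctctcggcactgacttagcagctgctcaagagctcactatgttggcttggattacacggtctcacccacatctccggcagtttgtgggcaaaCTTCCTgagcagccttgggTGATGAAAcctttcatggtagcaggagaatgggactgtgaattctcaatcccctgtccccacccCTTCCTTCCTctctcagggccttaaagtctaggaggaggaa
P2RX7, chr12:121570429-121570621, plus strand: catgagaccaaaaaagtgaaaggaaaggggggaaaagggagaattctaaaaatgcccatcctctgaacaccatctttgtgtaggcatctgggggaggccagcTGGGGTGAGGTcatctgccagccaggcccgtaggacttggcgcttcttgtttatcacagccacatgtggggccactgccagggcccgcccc
CD86, chr3:121773959-121774208, plus strand: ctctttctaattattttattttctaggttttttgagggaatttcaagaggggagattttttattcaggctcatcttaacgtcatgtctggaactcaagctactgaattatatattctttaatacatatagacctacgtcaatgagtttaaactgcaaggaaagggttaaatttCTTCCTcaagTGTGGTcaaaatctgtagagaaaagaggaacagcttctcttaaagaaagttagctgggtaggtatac
Both strands of each full window were searched for AGGAAG (an ETS core), TGNGGT (a RUNX core), AGATAA (the core of GATA factors), TGATGNAA (a composite C/EBP and ATF core) and CCAAT. Of all 35116 RefSeq windows, 28.7% hold AGGAAG, 37.7% TGNGGT, 9.17% AGATAA, 3.14% TGATGNAA and 32% CCAAT.

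The CTSG window held 4 matches to AGGAAG, of which 1 ends in the bases not shown and 2 overlap, and 1 match to TGATGNAA. In the P2RX7 window there were 2 matches to TGNGGT that overlap by 1 base, and 1 to CCAAT, which lies in the bases not shown. The CD86 window shown held 1 match to AGGAAG and 1 to TGNGGT, and a second CD86 window in the table held 0 matches. No motif was matched in all 3 of these windows. CNTN4 has 2 annotated windows in the table, and neither lies where most of its reads begin, so they are not shown.

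SPNS3 (ENSG00000182557, GRCh37 chr17:4336983-4391503, plus strand) belongs to the Spinster family of membrane transporters. It had 1090 reads in the control, 25 in shRBM15#1 and 26 in shRBM15#2. These are 22.0, 0.558 and 0.498 CPM, so the control was 39.4-fold and 44.2-fold above the lines. The log2 ratio was -5.28 ± 0.11 (SD of the 2 lines), the lowest of all tested genes. The 95% Poisson interval of 25 reads, 16.2 to 36.9, covers counting error only and takes in the 26 reads of the other line.

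P2RX7 (ENSG00000089041, chr12:121570622-121623876, plus strand) encodes a cation channel opened by extracellular ATP, known for its role upstream of the inflammasome and IL1B release. Its reads numbered 2096 in the control, 71 in shRBM15#1 and 101 in shRBM15#2, or 42.4, 1.59 and 1.94 CPM. The control was 26.7-fold and 21.9-fold above the lines, and the log2 ratio was -4.56 ± 0.20.

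OSCAR (ENSG00000170909, chr19:54597933-54606000, minus strand) is a receptor of the leukocyte immunoglobulin-like family that binds collagen and signals through the FCER1G adaptor. The control held 841 reads, shRBM15#1 36 and shRBM15#2 42, which is 17.0, 0.804 and 0.805 CPM. Both lines were 21.1-fold below the control, and the log2 ratio was -4.33 in either line.

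ACAP1 (ENSG00000072818, chr17:7239848-7254797, plus strand) activates the GTPase of ARF6 and takes part in the recycling of endosomal cargo. It had 2849 reads in the control, 178 in shRBM15#1 and 244 in shRBM15#2, or 57.6, 3.98 and 4.68 CPM. The log2 ratio was -3.73 ± 0.16, from a control 14.5-fold and 12.3-fold above the lines.

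CTSG (ENSG00000100448, chr14:25042728-25045466, minus strand) encodes cathepsin G, a serine protease of azurophil granules. Per length of its bins it was the highest of the set in the control, at 69.7 CPM per kb, against 6.18 to 11.8 for the other 5 that were lower after knockdown. Its 4741 control reads faced 167 in shRBM15#1 and 446 in shRBM15#2, which is 95.8, 3.73 and 8.55 CPM. Here the lines differed: the control was 25.7-fold above shRBM15#1 and 11.2-fold above shRBM15#2, a gap of 1.19 between their log2 ratios. Among genes with at least 100 reads in their highest library, 3.38% had a gap between the lines at least as wide, against 42.8% to 99.7% for the gaps of the other 5. Mean ± SD of the CTSG log2 ratio was -4.07 ± 0.84.

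CNTN4 (ENSG00000144619, chr3:2140497-3099645, plus strand) is a contactin, a membrane-anchored adhesion molecule of the immunoglobulin superfamily known from axons. Reads numbered 2791 in the control, 204 in shRBM15#1 and 222 in shRBM15#2, or 56.4, 4.56 and 4.26 CPM. The control was 12.4-fold and 13.3-fold above the lines, and the log2 ratio was -3.67 ± 0.07. The antisense gene CNTN4-AS1 overlaps it, and the libraries carry no strand, so reads of the pair cannot be told apart where they overlap.

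CD86 (ENSG00000114013, chr3:121774213-121839983, plus strand) is a B7 ligand of CD28 and CTLA4 on antigen-presenting cells. It had 8 reads in the control (95% Poisson interval 3.45 to 15.8), 184 in shRBM15#1 and 166 in shRBM15#2, which is 0.162, 4.11 and 3.18 CPM. The lines were 25.4-fold and 19.7-fold above the control by CPM, and the log2 ratio was 4.17 ± 0.26. The interval covers counting error in 1 library only and is not used as a test, since CD86 was chosen on these libraries. Only 2 of the tested genes had a higher mean log2 ratio. In the knockdown lines CD86 remained a low gene, at 1.20 and 0.928 CPM per kb.

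**Figure D2:**
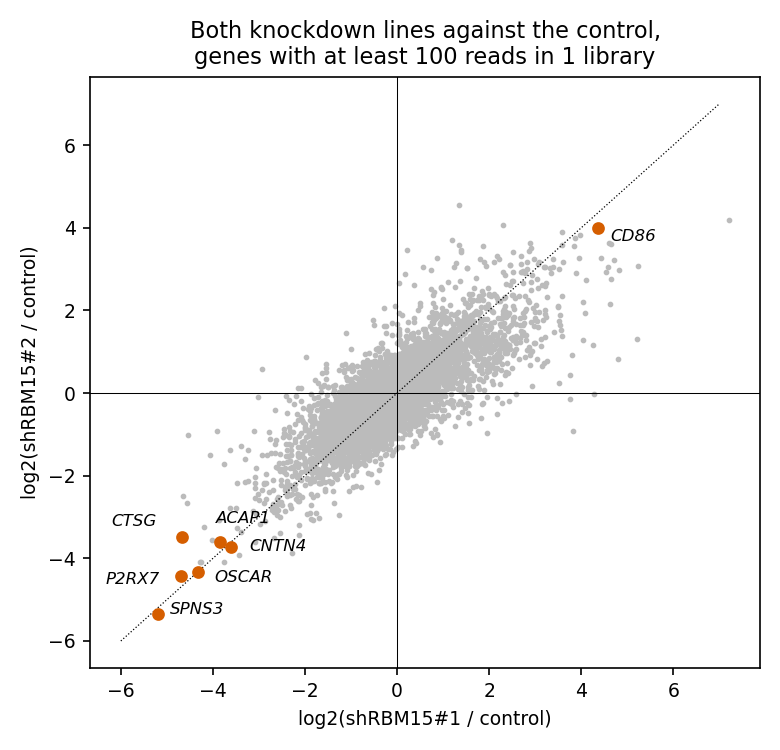
Log2 ratio to the control in shRBM15#1 (horizontal axis) and shRBM15#2 (vertical axis) for every gene with at least 100 reads in 1 library (grey) and the 7 genes (orange), with the line of equal ratios dotted. Of the 7 genes, 6 lie at the lower left, CTSG farthest from the dotted line, and CD86 lies at the upper right.

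The spread of reads over the exon bins was not used to choose the set and was tested, with a filter that leans on the control. With diffSpliceDGE in edgeR, which compares the fold of a bin with that of the rest of its gene, 0 of the 114 bins tested in the 7 genes passed an adjusted p of 0.05, and the background share of bins called was 0.0205% of 234192. At an unadjusted p under 0.05 there were 2 of these 114 bins, both of ACAP1. Bins entered with at least 30 summed reads. In the genes that were lower after knockdown these reads come mostly from the control, where the genes were chosen to be high. Bins that fell less could be left out, such as ACAP1 chr17:7248650-7249562, with 7, 5 and 4 reads. The number also depends on the minimum, with 15 bins at 10 reads and 0 at 100. Nothing about the set is therefore read from the 2 bins or from the background share of 1.45%. The DEXSeq-type model in DESeq2 called 0 as well, with 3 bins of the set at an unadjusted p under 0.05. Few reads remain in the knockdown libraries for SPNS3 and OSCAR, so a shift in the use of 1 bin was not detectable there at this depth. In CD86 only 5 bins had enough reads to be tested.

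The 2 ACAP1 bins lie between the exons of the reference transcript, the Ensembl canonical transcript in GENCODE v44. The bin at chr17:7251795-7252313, 519 bases wide, had 20 reads in the control, 8 in shRBM15#1 and 5 in shRBM15#2. Its usage relative to the gene was higher in the knockdown by 2.45 on the log2 scale (edgeR unadjusted p = 0.00161, adjusted p = 1.0). The second, at chr17:7250562-7251240, had 33, 4 and 10 reads (edgeR unadjusted p = 0.0102, adjusted p = 1.0).

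The place of these 2 bins led to a look at every member, made after the values had been seen and with no test. Bins wholly inside the reference exons were set against bins wholly outside them, which by the annotation lie in alternative exons and retained introns. What the reads outside come from was not tested. In each of the 6 genes that were lower after knockdown, reads outside the reference exons were lower by a smaller factor than those inside, in both lines. CNTN4 had 2696 reads inside in the control and 170 and 179 in shRBM15#1 and shRBM15#2, which is 14.3-fold and 15.9-fold lower. Outside, the same gene had 84 reads against 34 and 38, which is 2.24-fold and 2.33-fold lower. Part of these outside reads lies in the first 14 bins, which held 4, 8 and 14 reads, inside and outside bins together. Those bins lie before the place where most reads of the gene begin, and their reads did not fall. The smaller fall outside rests in part on them.

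For ACAP1, reads inside were 19.5-fold and 15.3-fold lower and reads outside 3.89-fold and 4.04-fold lower, from 245 to 57 and 64. The share of ACAP1 reads outside the reference exons was 8.60% in the control, 32% in shRBM15#1 and 26.2% in shRBM15#2. OSCAR had 13.6%, 27.8% and 33.3% outside, on 10 and 14 reads. The shares of CTSG were closer together, at 2.38%, 5.39% and 3.81%. P2RX7 went from 74 outside reads to 9 and 5, and SPNS3 from 46 to 3 and 2, which are too few to tell the lines apart.

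Over all tested genes together the share outside was 5.87%, 5.92% and 5.64%. Of 7395 genes with at least 40 control reads both inside and outside, 34.6% had a larger share outside in both lines, and of the 350 among them that were at least 2-fold lower in both lines, 61.7% did. All 6 genes meet that minimum of 40, and all 6 had a larger share outside in both lines. The minimum was set on control reads only, in the library where these 6 genes were chosen to be high. Nothing is read from setting them beside these shares. CD86 had 1 control read outside, and shares of 4.35% and 3.61% in the lines.

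**Figure D3:**
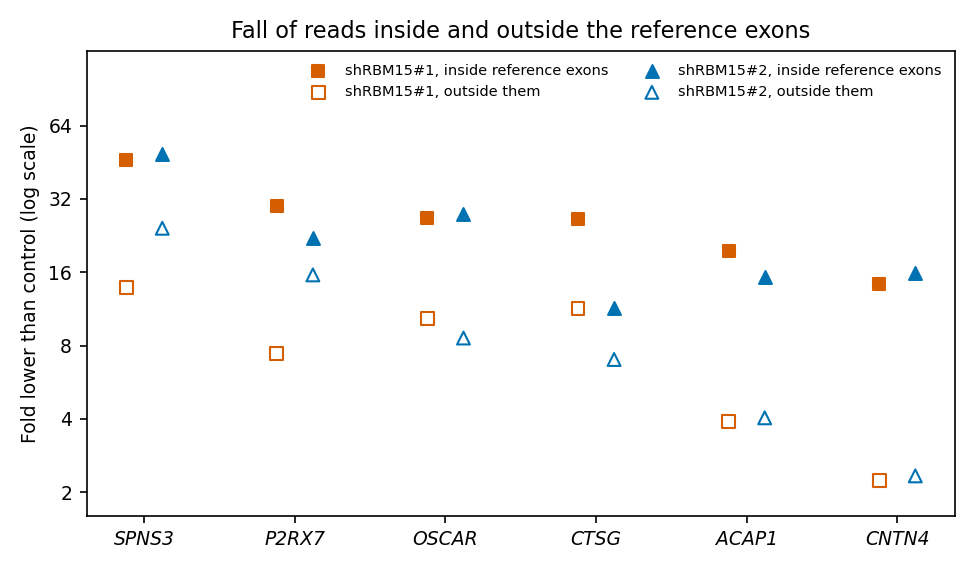
Fold by which reads were lower than in the control (log scale), inside the reference exons (filled) and outside them (open), for shRBM15#1 (squares) and shRBM15#2 (triangles). For all 6 genes the open symbol lies below the filled one of the same line, with the widest gap in CNTN4.

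The bins also show which part of each gene was read. In CNTN4 the first 14 bins held 4 reads in the control, 8 in shRBM15#1 and 14 in shRBM15#2. The first bin with at least 10 control reads was bin 15, at chr3:2613025, which is 472.5 kb from the annotated start. CTSG had reads in each of its 8 bins in the control and shRBM15#1 and in 7 in shRBM15#2, in nearly the same proportions. Across the 8 CTSG bins, Pearson's r between control counts and the summed knockdown counts was 0.992, a description over bins of 1 gene that share libraries and length. The CD86 reads of the knockdown lines spread over 20 of its 22 bins in either line, from the first exon to the last.

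The bins from the start of a gene to its midpoint, by bin length, held 26.6%, 25.8% and 28.0% of CTSG reads in the control, shRBM15#1 and shRBM15#2. They held 61.8%, 60.8% and 60.8% for CNTN4 and 66.6%, 64.8% and 64.4% for P2RX7. For ACAP1 they held 63.4%, 59.6% and 54.5%, and for OSCAR 58.6%, 63.9% and 61.9%. SPNS3 had 41.3%, 24.0% and 46.2% there, on 25 and 26 reads in the lines, and CD86 62.5%, 57.6% and 59.6%, on 8 reads in the control.

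**Figure D4:**
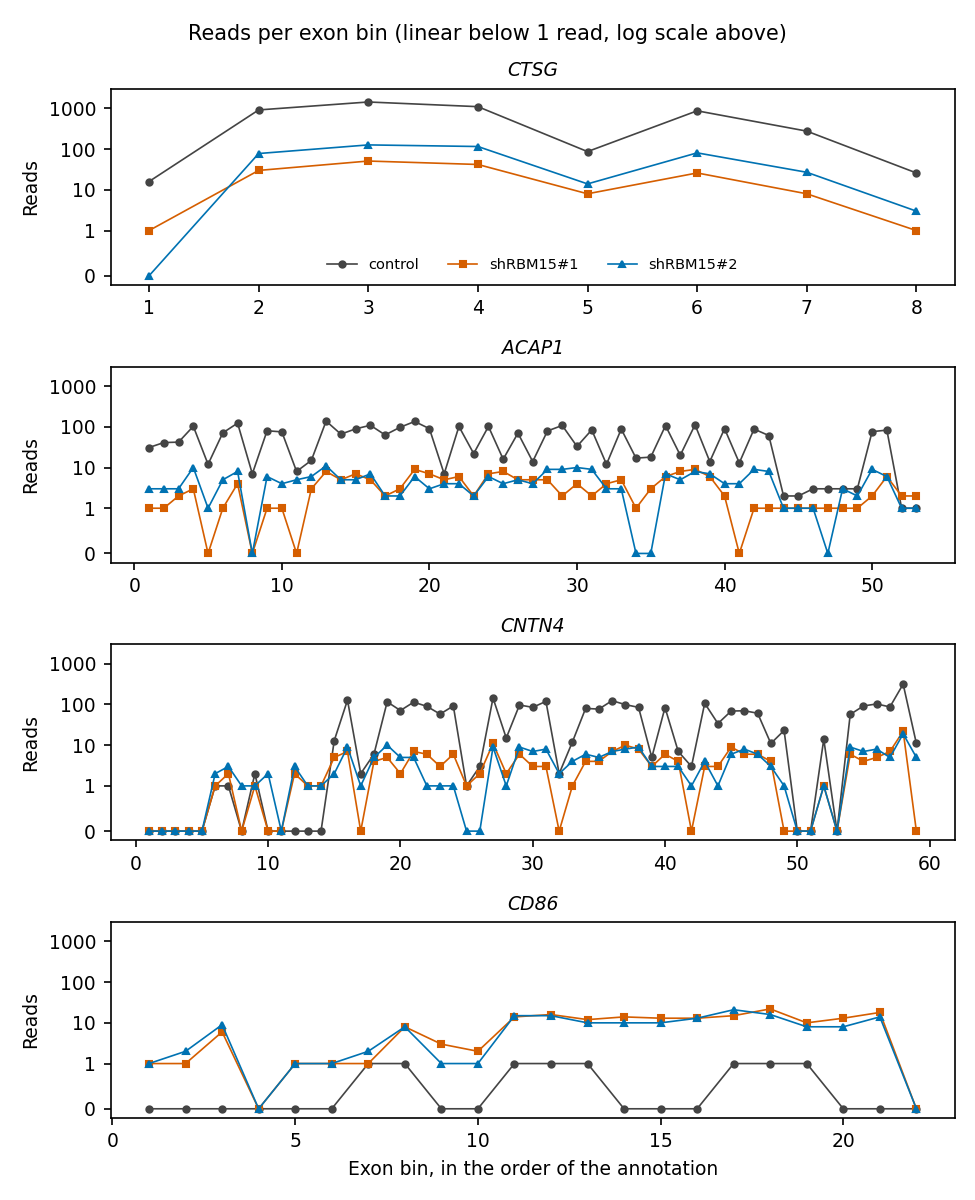
Reads per exon bin of CTSG, ACAP1, CNTN4 and CD86 in the 3 libraries, with bins in the order of the annotation and a vertical axis that is linear below 1 read and logarithmic above. In CTSG the 3 profiles run in parallel, in ACAP1 and CNTN4 the low control bins come close to the knockdown lines, and in CD86 the lines lie above the control.

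Most genes around the set changed by less than 2-fold. Of the 42 nearest tested neighbours, 3 on either side of each gene, 0 passed the edgeR test at an adjusted p of 0.01, where the background share of genes called was 0.277% lower and 0.0683% higher. At an unadjusted p under 0.05 there were 10 of the 42, against a background of 18.8%, and the DESeq2 Wald test called 2. In both lines 3 of the 42 were at least 2-fold lower and 6 at least 2-fold higher, where the background shares were 3.56% and 10.1%. Neither share lies below its background, so the neighbours were not quieter than tested genes at large. The fitted log2 fold change lay between -1 and 1 for 30 of the 42, and the median was 0.01. All 6 neighbours of SPNS3 and all 6 of ACAP1 lay within that range. SPNS2, a sphingosine 1-phosphate transporter of the same family 10.6 kb from SPNS3, had 1407, 1329 and 1049 reads (log2 fold change -0.19, edgeR adjusted p = 0.777). KCTD11, 0.4 kb from ACAP1, had 65, 55 and 70 reads, and NEURL4 on its other side had 833, 628 and 826.

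Beside P2RX7, 2 genes were at least 2-fold lower in both lines. ENSG00000261827, a gene with no symbol 1.5 kb from its end, had 130 reads in the control, 7 in shRBM15#1 and 6 in shRBM15#2 (log2 fold change -4.26, edgeR adjusted p = 0.012). P2RX4, another ATP-gated channel of the family 23.8 kb away, had 1700, 515 and 627 reads (log2 fold change -1.55 ± 0.26 SE, adjusted p = 0.0259 in edgeR). Neither passed 0.01. OASL, on the other side of P2RX7, had 97, 349 and 213 reads.

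The other neighbours at least 2-fold lower or higher in both lines were low genes or went against the change of the gene itself. Near CD86, CSTA, a cysteine protease inhibitor, had 531, 44 and 228 reads, and CASR, the calcium-sensing receptor, 3, 30 and 17. ILDR1, on the other side of CD86, had 17, 29 and 21. Near CTSG, the granzyme gene GZMB had 12, 31 and 47 reads, STXBP6 20, 141 and 46, and CMA1, the mast cell chymase, 6, 16 and 11. CNTN6 had 7, 43 and 29 reads near CNTN4, whose nearest neighbours ENSG00000225044 and CNTN4-AS1 had 169, 112 and 140 reads and 17, 11 and 8. CACNG7 had 2, 23 and 12 reads near OSCAR, whose nearest neighbours TARM1 and NDUFA3 had 3, 23 and 4 and 2665, 2028 and 3278. UBE2G1, the nearest gene before SPNS3, had 3928, 3352 and 3647.

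**Figure D5:**
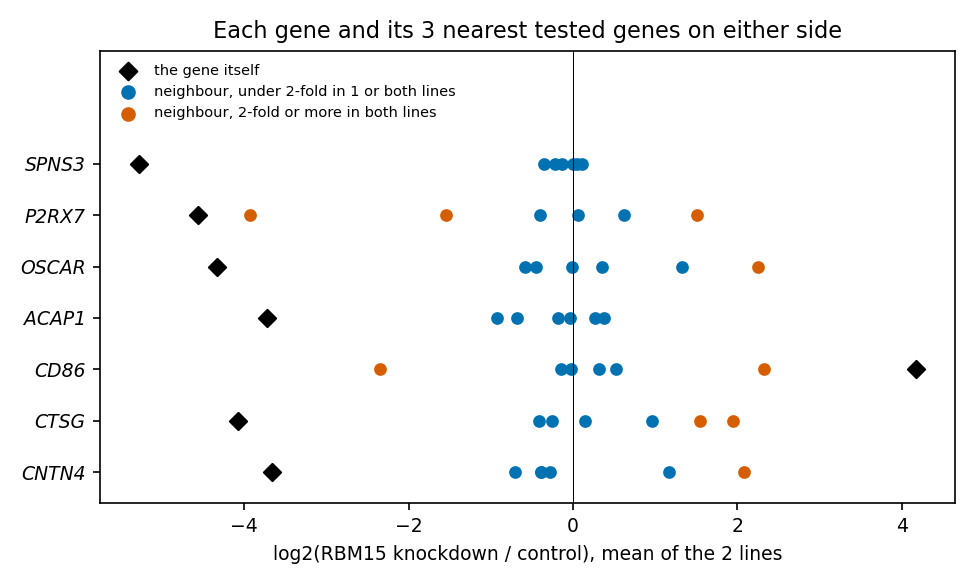
Mean log2 ratio of the 2 knockdown lines to the control for each of the 7 genes (diamond) and its 3 nearest tested genes on either side (circles, orange where at least 2-fold in the same direction in both lines). Most neighbours lie near 0, and 1 neighbour of P2RX7 lies beside it near -4.

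The families and pathways of the 7 genes were followed with 10 lists, which leave out the 7 genes themselves. Of 164 listed genes tested, 1 passed the edgeR test at an adjusted p of 0.01 downward and 1 upward. At an unadjusted p under 0.05 there were 70 of the 164, against 18.8% of all tested genes. In both lines 12 of the 164 were at least 2-fold lower and 41 at least 2-fold higher, against 3.56% and 10.1% of all tested genes. The same shares of all tested genes are the background of each list below. Most of the 41 had few control reads, among them BPI with 1, 51 and 23 reads and LILRB1 with 8, 67 and 41. Others did not, such as ID2 with 914, 2259 and 3016. The background shares were not matched for read level, here or in the lists below, so no rise of a family is read from them. The median log2 fold change was 0.44, against 0.02 over all tested genes.

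MS4A3, a membrane protein of granulocyte precursors, was the 1 listed gene that passed the test downward. It had 17300 reads in the control, 1263 in shRBM15#1 and 2659 in shRBM15#2 (log2 fold change -3.14, edgeR adjusted p = 0.00397). It belongs to the list of granule proteases and granule content, in which 3 of 17 tested genes were at least 2-fold lower in both lines and 5 at least 2-fold higher. The cysteine protease CTSC, which activates granule serine proteases, had 14557, 14550 and 21368 reads (edgeR adjusted p = 0.514). SRGN, the proteoglycan of granules, had 5428, 5544 and 8845. SERPINB1, an inhibitor of neutrophil serine proteases, had 11290, 2706 and 5931 reads and an edgeR adjusted p of 0.0862.

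S1PR1, a receptor of sphingosine 1-phosphate, was the 1 listed gene that passed the test upward, with 186, 1407 and 1730 reads (log2 fold change 3.10, edgeR adjusted p = 0.00397). In the list of Spinster transporters and sphingosine phosphate genes, 0 of 12 tested were at least 2-fold lower in both lines and 3 at least 2-fold higher. The phosphatase SGPP1 had 1545, 848 and 1163 reads, and the kinase SPHK2 735, 830 and 831.

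Among the other P2X receptors, 0 of 6 passed the edgeR test and 3 had an unadjusted p under 0.05. P2RX1, a platelet ATP receptor, had 2054, 354 and 1536 reads, so the lines differed from each other, and P2RX5 had 223, 144 and 119. Among 12 inflammasome partners, also 0 passed, and 4 had an unadjusted p under 0.05. IL1B had 13372, 5705 and 7781 reads (edgeR adjusted p = 0.0762), CASP4 6864, 4773 and 7215, and the pore protein GSDMD 6202, 3562 and 7458.

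Of 25 leukocyte immunoglobulin-like receptors and their adaptors, 0 passed, 12 had an unadjusted p under 0.05 in edgeR, 3 were at least 2-fold lower in both lines and 9 at least 2-fold higher. FCER1G, the adaptor of OSCAR, had 807, 642 and 1251 reads, the kinase SYK 2367, 980 and 2585, and the platelet collagen receptor GP6 1015, 1034 and 2124. Of 24 ARF6 GTPase-activating proteins and partners, 0 passed and 6 had an unadjusted p under 0.05. SMAP2 had 20926, 7473 and 8324 reads (edgeR adjusted p = 0.0189), while ARF1 had 15904, 13562 and 16885 and ARAP1 8308, 5398 and 9221.

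Of 13 tested genes of the B7 family and its receptors, 0 passed and 3 had an unadjusted p under 0.05. CD276 had 1493, 1772 and 2048 reads, CD40 1023, 1366 and 1481, and VSIR 1919, 385 and 1417. Of 10 MHC class II and loading genes, which serve antigen presentation, 0 passed and 7 had an unadjusted p under 0.05. All 10 had a positive log2 fold change, with a median of 2.56. The lines differed widely there: CD74, the invariant chain, had 106 reads in the control, 1881 in shRBM15#1 and 110 in shRBM15#2, and HLA-DRA had 77, 813 and 96. HLA-DMA had 312, 205 and 558.

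Of 19 contactins and partners, 0 passed, 11 had an unadjusted p under 0.05, 1 was at least 2-fold lower in both lines and 9 at least 2-fold higher. These 9 were all low genes, with from 7 (CNTN6) to 36 (NFASC) control reads. The highest of the 19, APP, had 45442, 28857 and 42576 reads, APLP2 17258, 12322 and 19393, and the contactin-binding phosphatase PTPRG 2565, 1825 and 2205. Of 26 myeloid transcription factors, 0 passed and 14 had an unadjusted p under 0.05, 3 at least 2-fold lower and 6 at least 2-fold higher in both lines. MYB had 19213, 7108 and 12363 reads (edgeR adjusted p = 0.119), STAT5A 14591, 8145 and 9165, and NFE2 8805, 9477 and 12464.

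Markers of the cell line and of other blood cells were set beside these values. The megakaryoblast gene ITGA2B had 45463, 21287 and 31658 reads, whereas GP9 and PF4 had at most 5 reads in any library. The 10 megakaryoblast markers summed to 1005, 579 and 794 CPM, of which ITGA2B made up 918, 474 and 606. Of the 8 of these that were tested, 0 were at least 2-fold lower in both lines, 4 were at least 2-fold higher and 1 was called higher. Over all tested genes, for this and the marker lists below, those shares were 3.56%, 10.1% and 0.0683%. The 8 erythroid markers summed to 608 CPM in the control and 4130 and 3830 in shRBM15#1 and shRBM15#2, and 3 of the 8 were called higher. The 7 granulocyte precursor markers summed to 386, 56.7 and 104 CPM, of which MS4A3 made up 349, 28.1 and 50.9 and LYZ, lysozyme, 35.3, 25.5 and 50.9. The defining granule genes ELANE, PRTN3 and AZU1 had at most 12 reads in any library, so CTSG stood at 4741 control reads beside 1, 2 and 2 reads of those genes.

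The 8 monocyte and macrophage markers summed to 19.9, 48.5 and 46.9 CPM, with MRC1 at 0 in all 3 libraries. Of the 7 tested, 4 were at least 2-fold higher in both lines. Among these, CD14, FCGR3A and CD163 had only 13, 12 and 4 control reads. Dendritic markers summed to 2.73, 6.81 and 3.87 CPM, T cell markers to 3.88, 4.30 and 3.52, B cell markers to 5.39, 5.57 and 4.38, and NK cell markers to 15.1, 16.5 and 10.3. Fibroblast markers summed to 2.00, 12.1 and 11.0 CPM and epithelial markers to 158, 107 and 109. The part of these marker changes in the levels of the 7 genes was not tested.

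By likeness of the log2 ratios in both lines, over the 2 ratios of each gene and among genes with at least 100 reads in their highest library, INHBE, an inhibin subunit, was among the 2 genes closest to each of SPNS3, P2RX7 and OSCAR. INHBE had 5125, 242 and 318 reads, at distances of 0.27 log2 units from OSCAR, 0.57 from P2RX7 and 1.59 from SPNS3. HOXB9, a homeobox factor, was closest to ACAP1 at 0.19, with 1795, 98 and 160 reads, and ENSG00000261827 followed at 0.49. SPX, which encodes the peptide spexin, was closest to CTSG at 0.53, with 4628, 228 and 512 reads, and like CTSG it was lower in shRBM15#1 than in shRBM15#2, with HOXB9 next at 0.65. ASS1, the argininosuccinate synthase, was closest to CNTN4 at 0.28, ahead of ENSG00000261827 at 0.41. The genes closest to CD86 were the globin gene HBA2 at 0.42, with 65, 949 and 999 reads, and TMEM233 at 0.44, with 9, 239 and 141. HBA2 shares most of its sequence with HBA1, so its count is uncertain.

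The series also holds a list of 1515 sites on RNA bound by RBM15 in MEG-01 cells, from immunoprecipitation of RNA with an antibody to RBM15. None of the 7 genes is named for a site, and 0 sites lie in the span of any of them. The nearest site by position lay 118 kb from OSCAR, 129 kb from ACAP1 and 227.3 kb from SPNS3, and farther from the others. The list holds only sites that passed the test of the authors, so the absence of a site gives no upper limit on binding.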

How the data were processed

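RNA-seq libraries of MEG-01 cells, 1 control and 2 with RBM15 knockdown, were analysed. Paired-end reads, made without strand information, were mapped by the authors to GRCh37 with STAR and an Ensembl annotation. The authors deposited raw counts for each exon bin. The counting program is not certain, and the submitters' processing notes list HTSeq 0.6.0. Columns with the authors' own comparisons (fold changes and p-values per bin and per site) were not used. In their list of RBM15 sites, peaks were called on all samples and tested with DESeq, and only site genes and positions were used, because antibody labels and count columns conflict. Lines that name no gene were left out of library sizes: reads in no bin were 21.6%, 30.4% and 21.9% in the control, shRBM15#1 and shRBM15#2.

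Bin counts were summed per gene and tested with edgeR 4.0.16 in R 4.3.3 (TMM, quasi-likelihood test, summed count of at least 30, Benjamini-Hochberg adjusted p under 0.01). Exon usage was tested with diffSpliceDGE on 234192 bins with at least 30 reads. Log2 ratios per line used a prior count of 2. DESeq2 1.42.0 served as the alternative. The scripts were tested on simulated data. The 7 genes and the lists were chosen with earlier results of these data known. Names follow a rule: of each list every gene called and the 3 highest others, of the neighbours those at least 2-fold changed in both lines and the nearest on either side, and the 2 most alike genes, of which 1 is not reported here. Symbols are from GENCODE v44 lifted to GRCh37. P-values measure the spread between the 2 knockdown lines, which carry different hairpins. Intervals cover counting error only.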

Additional observations from a re-analysis of the deposited data

How the results depend on the processing

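For MS4A3, S1PR1 and RBM15, the side of the threshold and the direction held in 18 of 18 alternative values. Those at an adjusted p of 0.05 repeat the main fit, so they could not have differed. For the levels of the 7 genes 20 of 28 alternative values with both lines kept stayed within 1 SD of the lines. Counting only bins of at least 100 bases, chosen after seeing the data, gave log2 ratios of -5.12 for SPNS3, -4.79 for OSCAR, -3.48 for ACAP1 and -3.59 for CNTN4. For OSCAR, whose lines are nearly equal, bins not shared with another gene gave -4.33, DESeq2 size factors -4.33 and a smaller prior count -4.40, and that prior gave 4.46 for CD86. Leaving out either knockdown line, which leaves 1 library against 1 and no test, gave -4.67 to -3.48 for CTSG. Genes called numbered 86, and 191 with DESeq2 size factors, 801 with no filter on low counts, 539 with the DESeq2 Wald test, 432 at an adjusted p of 0.05 and 132 with only bins of at least 100 bases. Under the same alternatives, in that order, called listed genes numbered 4, 23, 16, 13 and 3 in place of 2, and called neighbour genes 1, 3, 2, 2 and 1 in place of 0. With no filter the median log2 ratio of all genes moved to 0.25. The DEXSeq-type model called 194 bins in place of 48, and bins of the 7 genes at an unadjusted p under 0.05 numbered 15 with a minimum of 10 reads and 0 with 100, in place of 2. No paired analysis was possible because the control is 1 library and the groups share fewer than 2 replicate numbers. Depth limits SPNS3 and OSCAR the most, which keep 25 to 42 reads after knockdown, and it also limits single bins of P2RX7, ACAP1 and CNTN4. The cause of these differences was not tested.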
